A study of Mus musculus with 18 samples.

Results

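RelA(wt) cells at 2 h of TNFα were compared with the same cells at 1 h, to see which mRNAs of the first hour had gone down and which went up only later. The samples were taken by their titles, 2 libraries at 2 h and 2 at 1 h, which makes 4 of the 18 RNA-seq libraries of the series. RelA(wt) cells are immortalized mouse embryonic fibroblasts of rela-/- genotype to which wild-type mouse RelA was returned with a retrovirus, so RelA in them is made from the retroviral vector and not from its own promoter. Both groups received 5 ng/ml TNFα, for 1 h or for 2 h. The untreated RelA(wt) libraries (0 h, 2 libraries) give the level before TNFα. Where another line is named, it is RelA(TA2), with substitutions in the TA2 part of the RelA transactivation domain, or RelA(Ser276Ala), with alanine in place of the serine of its name, each made from the same rela-/- cells and sampled at the same 3 times with 2 libraries per time. The levels are FPKM, fragment numbers scaled to transcript length and to the mapped fragments of the library, which were deposited for each assembled transcript and were added up per gene. In each pair of values the first belongs to replicate 1 and the second to replicate 2.

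The 2 libraries at 1 h held an estimated 31.3 M and 29.05 M mapped fragments and those at 2 h held 25.5 M and 26.3 M, against 25.3 M to 31.3 M over all 18. The labelled cell type was checked against its markers. All 19 fibroblast and matrix markers were expressed, with a summed level of 5533 to 5584 FPKM at 1 h and 5188 to 6203 FPKM at 2 h. Of 10 macrophage markers, 6 were listed at 0 in all 4 libraries, and the sum was 29.1 to 37.7 FPKM at 1 h and 20.1 to 28.7 FPKM at 2 h. Endothelial markers (6 of 7 listed at 0 in all 4 libraries) summed to 1.12 to 5.70 FPKM at 1 h and 5.91 to 7.57 FPKM at 2 h, and none of the markers tested in these 3 lists changed by FPKM. By fragments 4 fibroblast markers rose and 1 fell, and 1 macrophage, 1 fat cell and 1 neural marker rose. Among all genes tested by fragments 10.7% rose and 14.1% fell. Epithelial (5 of 7 at 0), muscle (6 of 7), fat cell (3 of 6) and neural markers (3 of 6) summed to 47.4 to 59.8, 1.71 to 4.76, 39.97 to 45.5 and 19.04 to 23.8 FPKM over the 4 libraries. The part of other cells in the results below was not tested. In bulk samples fewer cells of a type and less RNA per cell cannot be told apart.

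TNFα binds its receptor and, through the IκB kinase complex, frees RelA-containing NF-κB to enter the nucleus, while the MAP kinases activate AP-1 and serum response factor. The first genes to respond code for transcription factors, chemokines and the inhibitors of the pathway itself. IκBα (Nfkbia) takes NF-κB back out of the nucleus and A20 (Tnfaip3) edits ubiquitin chains at the receptor complex, so both close a feedback loop. Many early mRNAs carry A+U-rich elements in the 3′ untranslated region, which proteins such as tristetraprolin (Zfp36) bind to speed up decay, so a transcript can vanish soon after its transcription stops.

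The promoters of 3 genes that fell and of 1 that rose are shown because each holds a match to the κB consensus (3 G, a purine, any base, A or T, 2 pyrimidines, 2 C, on either strand). The sequences are the 250 bases before the annotated start, from RefSeq on build GRCm38.p6, written 5′ to 3′ on the strand of the gene. Capitals mark matches to the κB consensus, which overlap each other in Cxcl1 and Tnip1, and in Tnfaip3 also a TATAAA and a TGANTCA match.
Nfkbia promoter, chr12:55492648-55492897, minus strand: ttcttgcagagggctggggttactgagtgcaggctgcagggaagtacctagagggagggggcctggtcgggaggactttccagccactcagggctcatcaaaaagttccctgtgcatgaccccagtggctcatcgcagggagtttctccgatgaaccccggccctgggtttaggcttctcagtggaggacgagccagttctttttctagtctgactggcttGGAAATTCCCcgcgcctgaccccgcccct
Tnfaip3 promoter, chr10:19015411-19015660, minus strand: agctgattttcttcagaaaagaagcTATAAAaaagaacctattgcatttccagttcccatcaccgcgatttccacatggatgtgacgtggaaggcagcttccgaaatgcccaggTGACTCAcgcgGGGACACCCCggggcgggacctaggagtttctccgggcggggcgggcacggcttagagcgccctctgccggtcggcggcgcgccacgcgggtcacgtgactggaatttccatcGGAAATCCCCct
Cxcl1 promoter, chr5:90890995-90891244, plus strand: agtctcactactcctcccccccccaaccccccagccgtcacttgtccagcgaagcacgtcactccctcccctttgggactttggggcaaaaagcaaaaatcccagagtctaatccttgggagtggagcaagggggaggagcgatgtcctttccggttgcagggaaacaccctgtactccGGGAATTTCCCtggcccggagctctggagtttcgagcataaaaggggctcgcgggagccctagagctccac
Tnip1 promoter, chr11:54962941-54963190, minus strand: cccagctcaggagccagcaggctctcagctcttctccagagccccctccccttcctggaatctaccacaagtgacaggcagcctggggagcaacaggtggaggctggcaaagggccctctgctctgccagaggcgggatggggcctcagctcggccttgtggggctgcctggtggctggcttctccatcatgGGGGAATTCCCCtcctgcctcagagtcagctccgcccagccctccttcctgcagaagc

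The A+U-rich sites below come from the 3′ untranslated regions of 5 genes that were high at 1 h and low or listed at 0 at 2 h, and of Nfkb1, which rose. Each is the stretch of 30 bases with the most copies of the 7-base element TATTTAT, then of the 5-base core ATTTA, in the longest 3′ untranslated region annotated by GENCODE on mm10. Capitals mark ATTTA.
Csf2 site, chr11:54247328-54247357, minus strand: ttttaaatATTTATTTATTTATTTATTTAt
Cxcl2 site, chr5:90905327-90905356, plus strand: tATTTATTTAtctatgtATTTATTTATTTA
Cxcl1 site, chr5:90892603-90892632, plus strand: agggtcctATTTATTTAtgtATTTATTTAt
Dusp1 site, chr17:26506167-26506196, minus strand: ggctcatgggagctggtccttATTTATTTA
Zfp36 site, chr7:28376962-28376991, minus strand: gggccctttATTTAtgacgactttATTTAt
Nfkb1 site, chr3:135584705-135584734, minus strand: aagaaatgttgaATTTAtaaatgctATTTA
The whole regions hold 9 copies of ATTTA in 317 bases for Csf2, 11 in 1494 bases for Cxcl2, 7 in 592 bases for Cxcl1, 4 in 690 bases for Dusp1, 3 in 774 bases for Zfp36 and 4 in 700 bases for Nfkb1, whose copies include no TATTTAT. Tnip1 has no copy of ATTTA in 752 bases, and Lrrc32, which rose as well, none in 2175 bases. Other genes that rose do hold TATTTAT, with 2 copies in 785 bases for Id2 and 1 in 2111 bases for Csf1. Ptgs2, which fell by fragments only, holds 6 in 2445 bases, and Icam1, which rose by fragments only, 2 in 871 bases.

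From 1 h to 2 h about as many genes went up as down. Among 12254 genes tested by FPKM, 250 rose, 2.04% of those tested, and 230 fell, 1.88%. Of these, 96 rose and 113 fell at least 2-fold. The test was limma on log2(FPKM + 0.5), fitted over all 18 libraries, and a change was called at an adjusted p under 0.05. Errors of log2 changes are SE of that fit, with 2 libraries per time. A second measure was the number of fragments, recovered from FPKM and its confidence limit for the only transcript of a locus. For other transcripts it was estimated from FPKM and transcript length. Scaled to the library's fragments in genes, it varied less between replicates. It called 1258 of 11787 genes (10.7%) as higher and 1664 (14.1%) as lower. Of the genes that rose by FPKM and could be tested by fragments, 209 of 240 rose by both, and of those that fell 199 of 221 fell by both. Without 1 h replicate 1 or 2 the genes that rose by FPKM numbered 140 and 139, and without 2 h replicate 1 or 2 those that fell numbered 113 and 121. The median change of all genes was -0.019 by FPKM and -0.035 by fragments.

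Many immediate-early genes fell, and for several the level at 2 h was not distinguished from that before TNFα. Of 28 immediate-early transcription factors and regulators tested, 12 fell and 2 rose by FPKM, against 1.88% and 2.04% of all genes. Their median log2 change was -1.06 against -0.02 for all genes tested. By fragments 18 of 28 fell and 3 rose, against 14.1% and 10.7% of all genes. Egr1, a zinc-finger factor induced by serum response factor, had 13.5 and 15.5 FPKM before TNFα, 597 and 699.9 at 1 h and 6.23 and 6.98 at 2 h. Both 2 h libraries lay far below both 1 h libraries and also below both 0 h libraries (2 h minus 1 h, -6.51 ± 0.27, adjusted p = 2.91e-07). Against 0 h the difference did not pass the test (-1.08, adjusted p = 0.0896). Btg2, an antiproliferative factor that recruits the mRNA deadenylase, went from 16.5 and 16.9 FPKM at 0 h to 175 and 182 at 1 h and 8.72 and 11.6 at 2 h. It fell between 1 h and 2 h (-4.09 ± 0.15, adjusted p = 1.45e-07) and was lower at 2 h than before TNFα (-0.70, adjusted p = 0.0468).

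AP-1 and Krüppel-like factors fell by smaller amounts than Egr1. Jun, the partner of Fos in AP-1, stood at 47.9 and 51.9 FPKM at 0 h, 217 and 209 at 1 h and 40.7 and 43.8 at 2 h (-2.32 ± 0.18, adjusted p = 5.71e-05). Its 2 h libraries lay just below the untreated ones. Klf6, a Krüppel-like zinc-finger factor, had 184 and 192 FPKM at 1 h and 28.9 and 27.7 at 2 h, beside 31.8 and 32.01 before TNFα (-2.71 ± 0.10, adjusted p = 1.45e-07). Ier2 fell from 108 and 115 to 9.35 and 10.4 FPKM (-3.43 ± 0.30, adjusted p = 0.000134), Atf3, a stress-induced member of the ATF family, from 102 and 108 to 18.8 and 22.8 (-2.32 ± 0.27, adjusted p = 0.000836) and Myc from 90.96 and 78.4 to 23.6 and 27.4 (-1.71 ± 0.13, adjusted p = 4.8e-05). Ier3, Junb, Klf2 and Myc had 2 h values above both 0 h libraries, which passed the test for Ier3 with 27.3 and 30.7 FPKM at 2 h against 14.6 and 13.3 at 0 h (2 h minus 0 h, 1.03, adjusted p = 0.0224) and for Junb with 49.1 and 56.4 against 17.9 and 19.8 (1.46, adjusted p = 0.00465), and not for Klf2 (0.54, adjusted p = 0.265) or Myc (0.43, adjusted p = 0.17). Csrnp1 fell as well (-1.95 ± 0.40, adjusted p = 0.0215), and Fos, the founding immediate-early gene, was listed at 0 before TNFα, at 8.84 and 10.2 FPKM at 1 h and at 0 again at 2 h (adjusted p = 2.05e-05). The call was lost for Junb without any 1 of the 4 libraries (adjusted p up to 0.112), and for Csrnp1 without any 1 of the 4 libraries (adjusted p up to 0.119).

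Fosl2 and Nr4a2 were the immediate-early members that rose by FPKM. Fosl2, another AP-1 subunit, had 17.8 and 17.2 FPKM at 0 h, 25.5 and 24.3 at 1 h and 45.6 and 46.96 at 2 h (0.88 ± 0.12, adjusted p = 0.0026). Nr4a2, an orphan nuclear receptor, stayed at 10.2 and 10.3 FPKM at 1 h, near its untreated 9.69 and 8.67, and reached 24.1 and 25.7 at 2 h (1.24 ± 0.13, adjusted p = 0.000446). For both, all libraries at 2 h lay above all libraries at the other times.

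**Figure D1:**
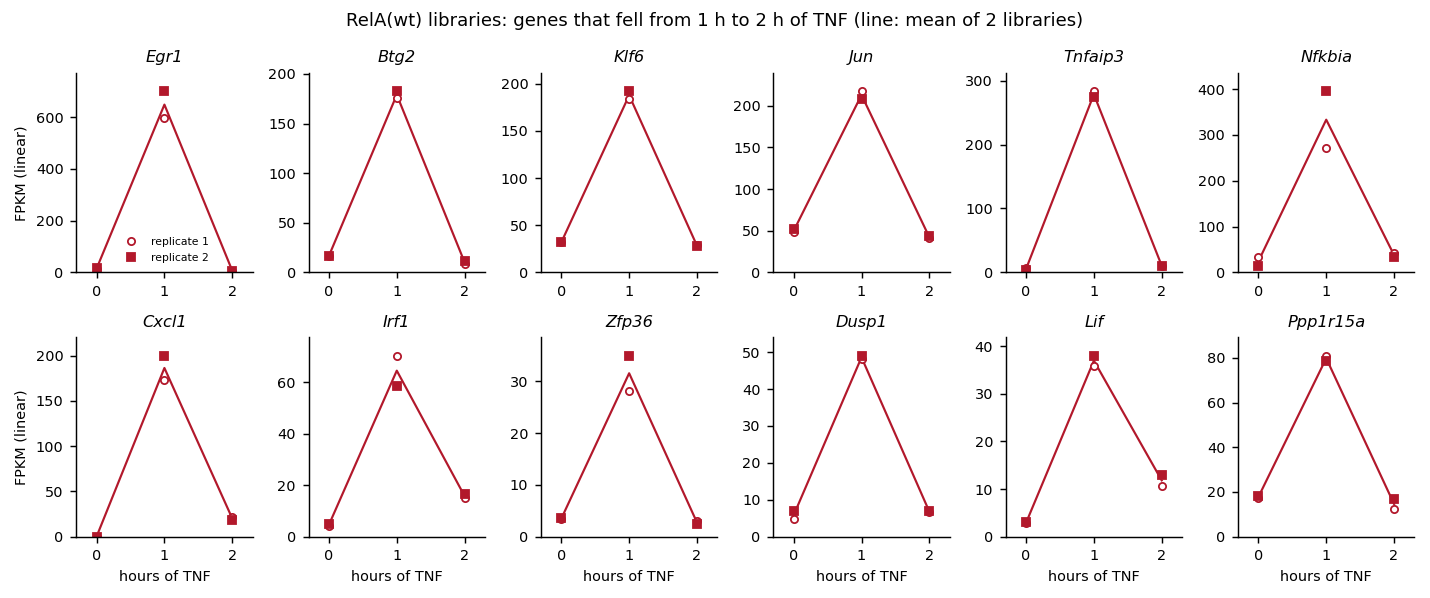
FPKM (linear axis from 0) of 12 genes that fell in RelA(wt) cells against hours of TNFα, with open circles for replicate 1, filled squares for replicate 2 and a line through the means. For all 12 the mean is highest at 1 h, and Egr1 drops from 597 and 699.9 FPKM to 6.23 and 6.98 at 2 h.

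Feedback inhibitors of the MAP kinases gave 4 genes that fell, Dusp1, Spry2, Dusp5 and Dusp6. Of 15 tested, 4 fell and none rose by FPKM, against 1.88% and 2.04% of all genes, with a median of -0.29. By fragments 8 fell and 1 rose, against 14.1% and 10.7% of all genes. Dusp1, a phosphatase of p38 and JNK, had 4.69 and 6.91 FPKM before TNFα, 48.1 and 49.1 at 1 h and 6.60 and 6.94 at 2 h (-2.76 ± 0.26, adjusted p = 0.000249). Spry2, a Sprouty inhibitor of receptor tyrosine kinase signalling, fell from 36.1 and 34.8 to 10.4 and 10.9 FPKM (-1.69 ± 0.15, adjusted p = 0.000127). The ERK phosphatases Dusp5 (137 and 141 to 73.9 and 81.7 FPKM, -0.83 ± 0.17, adjusted p = 0.0222) and Dusp6 (49.9 and 46.5 to 30.1 and 34.2 FPKM, -0.58 ± 0.14, adjusted p = 0.0451) fell by less than 2-fold. No call was made for Dusp5 without any 1 of the 4 libraries (adjusted p up to 0.118), and for Dusp6 without any 1 of the 4 libraries (adjusted p up to 0.211).

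The inhibitors of NF-κB moved in both directions. Of 17 NF-κB inhibitors and ubiquitin regulators tested, 3 fell and 4 rose by FPKM, against 1.88% and 2.04% of all genes. By fragments 4 fell and 10 rose, against 14.1% and 10.7% of all genes. Tnfaip3 (A20) had 7.18 and 3.29 FPKM at 0 h, 283 and 274 at 1 h and 10.6 and 10.5 at 2 h. The replicates agreed closely at both TNFα times and did not overlap between them (-4.66 ± 0.25, adjusted p = 2.61e-06), and the level left at 2 h was not distinguished from 0 h (1.03, adjusted p = 0.0801). Nfkbia (IκBα) went from 34.1 and 14.2 FPKM to 272 and 395 at 1 h and 41.9 and 33.7 at 2 h (-3.11 ± 0.32, adjusted p = 0.000391). Nfkbiz (IκBζ), a nuclear IκB that acts as a co-activator, fell from 58.2 and 66.2 to 12.2 and 7.37 FPKM (-2.64 ± 0.34, adjusted p = 0.00181), with 2.35 and 4.79 FPKM before TNFα.

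The members that rose include a partner of A20 and IκB proteins other than IκBα. Tnip1, which binds A20, had 14.02 and 15.1 FPKM at 0 h, 16.5 and 16.9 at 1 h and 31.7 and 30.6 at 2 h (0.88 ± 0.19, adjusted p = 0.027). Nfkbie (IκBε) rose from 4.44 and 3.05 to 8.47 and 9.54 FPKM (1.18 ± 0.27, adjusted p = 0.0415) and Nfkbib (IκBβ) from 14.03 and 14.2 to 24.3 and 19.6 (0.61 ± 0.14, adjusted p = 0.0352). Tnip3, a further A20 partner, was listed at 0 in both libraries at 0 h and at 1 h and at 3.48 and 3.41 FPKM at 2 h (adjusted p = 0.00424). The test was no longer passed for Tnip1 without any 1 of the 4 libraries (adjusted p up to 0.117), for Nfkbie without any 1 of the 4 libraries (adjusted p up to 0.212), and for Nfkbib without 1 h replicate 1 or 1 h replicate 2 or 2 h replicate 1 (adjusted p up to 0.19). By fragments Tnip1, Nfkbie and Nfkbib passed with every library in.

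Of the NF-κB subunits, Nfkb1 rose by FPKM, and Nfkb2 and Relb passed by fragments only. Nfkb1, the precursor of p50, had 12.2 and 11.8 FPKM at 1 h and 38.6 and 40.3 at 2 h (1.67 ± 0.32, adjusted p = 0.0169; by fragments 1.74 ± 0.08, adjusted p = 1.7e-07). Its untreated libraries disagreed, at 41.03 and 15.1 FPKM, and the FPKM call was lost without any 1 of the 4 libraries (adjusted p up to 0.0799). Nfkb2, the precursor of p52, had 63.2 and 57.8 FPKM at 1 h and 101 and 99.5 at 2 h (0.72 ± 0.33, adjusted p = 0.299; by fragments 0.69 ± 0.06, adjusted p = 1.66e-05). Relb, the partner of p52, had 12.1 and 11.95 FPKM at 1 h and 21.96 and 22.7 at 2 h (0.87 ± 0.36, adjusted p = 0.25; by fragments 1.25 ± 0.13, adjusted p = 5.77e-05). For Nfkb2 and Relb the libraries of the 2 times did not overlap. Rela itself, to which reads of the returned RelA can add, had 187 and 182 FPKM at 1 h and 168 and 156 at 2 h (-0.19 ± 0.10, adjusted p = 0.405).

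The chemokines that fell were Cxcl1, Cxcl2 and Cxcl10. Of 13 tested, 3 fell and none rose by FPKM, against 1.88% and 2.04% of all genes. By fragments 4 of 12 fell and 2 rose, against 14.1% and 10.7% of all genes. Cxcl1, a neutrophil chemokine, was listed at 0 before TNFα, stood at 173 and 200.2 FPKM at 1 h and at 21.4 and 18.8 at 2 h (-3.18 ± 0.24, adjusted p = 5.47e-05). Cxcl2, its close relative, was listed at 0 before TNFα, at 9.58 and 7.21 FPKM at 1 h and at 0 in both libraries at 2 h (adjusted p = 0.00188). Cxcl10, an interferon-induced chemokine, fell from 26.1 and 73.6 to 9.42 and 10.4 FPKM (-2.09 ± 0.38, adjusted p = 0.012), with 1 h libraries that differed widely. The adjusted p was above the threshold for Cxcl10 without 2 h replicate 1 (adjusted p up to 0.0631). By contrast Ccl2, the monocyte chemokine, had 138 and 135 FPKM at 0 h, 506 and 692 at 1 h and 639 and 631 at 2 h, and its libraries at the 2 TNFα times overlapped (0.10 ± 0.20, adjusted p = 0.91). Its sign turned by fragments (-0.18). Ccl20, a ligand for lymphocytes and dendritic cells, was listed at 0 before TNFα and stood at 42.6 and 36.04 FPKM at 1 h and 25.1 and 28.5 at 2 h (-0.54 ± 0.20, adjusted p = 0.182; by fragments -0.65 ± 0.18, adjusted p = 0.0207). For Cxcl1, Cxcl10 and Ccl20 both untreated libraries were listed at 0.

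Among cytokines and growth factors 5 of 25 fell and 2 rose by FPKM, against 1.88% and 2.04% of all genes. The median over all members was -0.15, and it was 0.17 over the 16 members above 0 in all 4 libraries. By fragments 6 of 19 fell and 5 rose, against 14.1% and 10.7% of all genes, with a median of 0.02. Lif, a cytokine of the IL-6 family, had 2.78 and 2.99 FPKM at 0 h, 35.95 and 38.1 at 1 h and 10.6 and 13.03 at 2 h (-1.61 ± 0.16, adjusted p = 0.000269), which was still above 0 h (2 h minus 0 h, 1.86, adjusted p = 0.000199). Tnfsf9 (4-1BB ligand) fell from 44.5 and 41.96 to 19.9 and 22.8 FPKM (-1.002 ± 0.14, adjusted p = 0.00282) and Ereg (epiregulin), a ligand of the EGF receptor, from 63.3 and 64.7 to 19.05 and 23.9 (-1.56 ± 0.16, adjusted p = 0.000336). Csf2 (GM-CSF) was listed at 0 before TNFα and at 2 h and had 14.04 and 13.1 FPKM at 1 h (adjusted p = 0.00027). Tnf itself was also listed at 0 at both of those times, with 1.25 and 1.54 FPKM at 1 h (adjusted p = 0.00738). Csf1 (M-CSF) went the other way, from 23.6 and 23.1 FPKM at 0 h to 64.995 and 59.1 at 1 h and 115 and 124 at 2 h (0.94 ± 0.11, adjusted p = 0.00083). Vegfa, the endothelial growth factor, rose from 17.1 and 18.3 to 27.2 and 28.97 FPKM (0.65 ± 0.15, adjusted p = 0.0429). Calls did not hold for Vegfa without any 1 of the 4 libraries (adjusted p up to 0.181).

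Other classical NF-κB targets gave no FPKM call. Ptgs2 (COX-2), the inducible prostaglandin synthase, had 10.7 and 11.1 FPKM at 0 h, 115 and 128 at 1 h and 73.9 and 81.6 at 2 h. The 2 h libraries lay below both 1 h libraries, a difference that passed by fragments (-0.65 ± 0.10, adjusted p = 0.000653) and not by FPKM (-0.64 ± 0.32, adjusted p = 0.364). Icam1, the leukocyte adhesion molecule, was listed at 0 before TNFα and had 3.59 and 2.55 FPKM at 1 h and 4.79 and 4.67 at 2 h. Its FPKM change was 0.56 ± 0.33, adjusted p = 0.453, and by fragments, with 2.52 and 1.38 CPM (fragments scaled to the library) at 1 h against 12.8 and 13.1 at 2 h, it was 2.49 ± 0.26, adjusted p = 5.59e-05. All values at 2 h lay above those at 1 h. Vcam1 had 49.2 and 32.9 FPKM at 1 h and 43.9 and 42.1 at 2 h, with the 2 h libraries inside the 1 h range (0.09 ± 0.31, adjusted p = 0.971). Of the 22 adhesion molecules and matrix proteases, Timp1, an inhibitor of metalloproteases, rose from 55.3 and 47.8 to 96.2 and 87.3 FPKM (0.83 ± 0.18, adjusted p = 0.0268). Adamts1, a matrix protease, fell from 63.2 and 67.3 to 11.2 and 12.4 (-2.42 ± 0.30, adjusted p = 0.00122). By fragments 8 of the list rose and 1 fell. Among all genes 2.04% rose and 1.88% fell by FPKM, and 10.7% and 14.1% by fragments. The call was lost for Timp1 without any 1 of the 4 libraries (adjusted p up to 0.146).

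Of 16 regulators of mRNA decay tested, 2 fell and 1 rose by FPKM, against 1.88% and 2.04% of all genes. By fragments 4 fell and 3 rose, against 14.1% and 10.7% of all genes, with a median of -0.037 beside -0.035 for all genes. Zfp36 (tristetraprolin), whose 3′ untranslated region holds the site printed above, had 3.44 and 3.51 FPKM at 0 h, 28.2 and 35.03 at 1 h and 2.98 and 2.47 at 2 h (-3.31 ± 0.25, adjusted p = 4.8e-05). Zfp36l1, of the same family, fell from 47.3 and 47.3 to 18.3 and 20.1 FPKM (-1.28 ± 0.09, adjusted p = 2.59e-05), close to its untreated 16.9 and 18.1. Tob2, which recruits deadenylase, had fallen at 1 h and rose again from 12.1 and 12.5 to 17.9 and 16.8 FPKM, with 18.9 and 18.9 at 0 h (0.48 ± 0.10, adjusted p = 0.0245). No call was made for Tob2 without any 1 of the 4 libraries (adjusted p up to 0.127).

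Several stress-response and p53 target genes fell, and none of the members tested rose by either measure. Among all genes 1.88% fell and 2.04% rose by FPKM, and 14.1% and 10.7% by fragments. Of 14 stress-response genes (integrated stress response and protein folding) 6 fell by FPKM, with a median of -0.67, and 8 by fragments. Of the 6, 1 fell by FPKM only, Atf6 (by fragments 0.09 ± 0.07, adjusted p = 0.375). Ppp1r15a (GADD34), which directs dephosphorylation of eIF2α, had 17.3 and 18.1 FPKM at 0 h, 81.03 and 78.6 at 1 h and 12.2 and 17.002 at 2 h (-2.43 ± 0.21, adjusted p = 0.000127). Chac1, a glutathione-degrading enzyme, fell from 32.8 and 42.6 to 2.85 and 3.29 FPKM (-3.41 ± 0.47, adjusted p = 0.00248) and Atf4, the central factor of the response, from 333 and 328 to 177 and 153 (-1.001 ± 0.14, adjusted p = 0.00256). Of 18 p53 targets 6 fell by FPKM, with a median of -0.29, and 10 by fragments. Mdm2, the ubiquitin ligase of p53, had 133 and 132 FPKM at 0 h, 279.99 and 288 at 1 h and 114 and 116 at 2 h (-1.30 ± 0.23, adjusted p = 0.01), Sesn2 fell from 50.9 and 52.3 to 13.5 and 16.4 (-1.76 ± 0.30, adjusted p = 0.0101) and Cdkn1a (p21) from 191 and 184 to 135 and 131 (-0.49 ± 0.11, adjusted p = 0.0408). Gadd45a, a further stress gene listed with the survival regulators, fell from 83.9 and 92.5 to 15.8 and 18.8 FPKM (-2.32 ± 0.44, adjusted p = 0.015). The test was no longer passed for Mdm2 without 1 h replicate 2 or 2 h replicate 1 (adjusted p up to 0.0527), for Sesn2 without 2 h replicate 1 (adjusted p up to 0.0626), for Cdkn1a without any 1 of the 4 libraries (adjusted p up to 0.169), for Gadd45a without any 1 of the 4 libraries (adjusted p up to 0.0804), and for Atf6 without 1 h replicate 2 or 2 h replicate 1 or 2 h replicate 2 (adjusted p up to 0.113).

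Of the YAP and serum response factor targets, Cyr61 and Ankrd1 fell. Of 15 tested 2 fell and none rose by FPKM, against 1.88% and 2.04% of all genes. By fragments 3 fell and 4 rose, against 14.1% and 10.7% of all genes. Cyr61, a matricellular protein, had 42.8 and 49.9 FPKM at 0 h, 577 and 312 at 1 h and 68.95 and 96.5 at 2 h (-2.37 ± 0.46, adjusted p = 0.0169). Ankrd1, a cytoskeleton-linked co-regulator, fell from 174 and 158 to 81.3 and 93.9 FPKM (-0.92 ± 0.12, adjusted p = 0.00185). Thbs1, a matricellular protein as well, had 34.8 and 38.9 FPKM at 0 h, 133 and 131 at 1 h and 143 and 146 at 2 h, with both TNFα times above 0 h (2 h minus 1 h, 0.13 ± 0.20, adjusted p = 0.86). The adjusted p was above the threshold for Cyr61 without 1 h replicate 1 or 2 h replicate 1 (adjusted p up to 0.117).

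**Figure D2:**
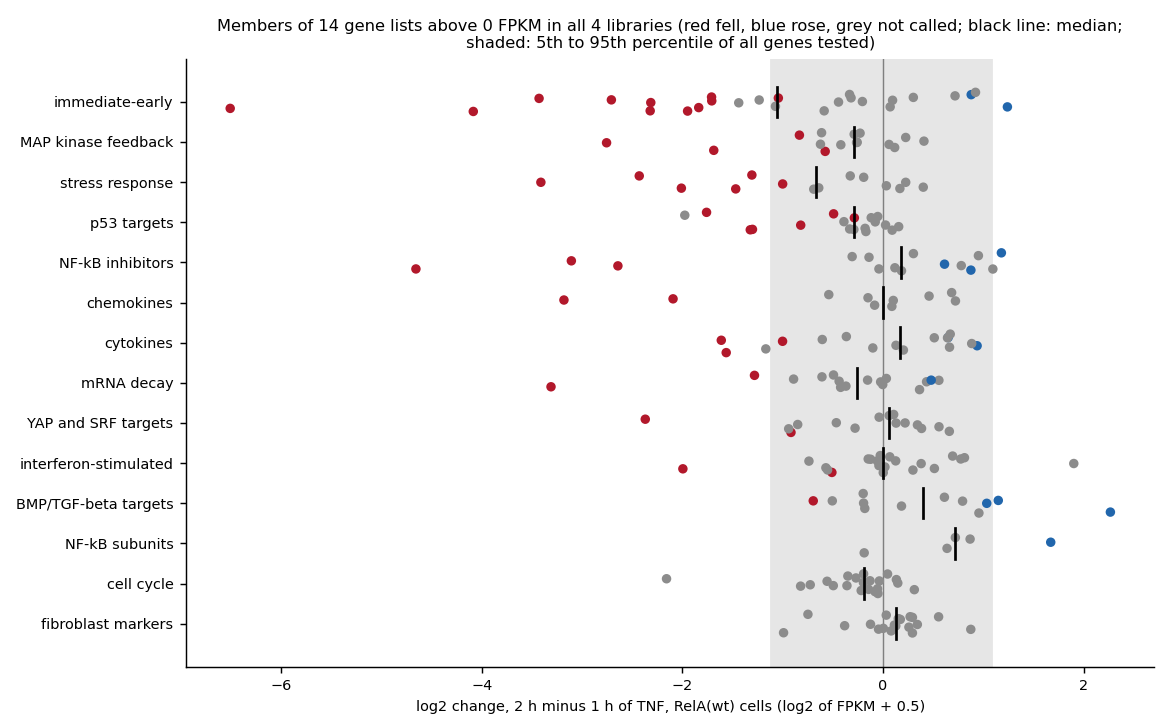
Log2 change from 1 h to 2 h (x axis, log2 of FPKM + 0.5) of the members of 14 gene lists (rows) that were above 0 FPKM in all 4 libraries, with red points for genes that fell, blue for genes that rose, grey for genes not called and a black bar at the median. The shaded band is the 5th to 95th percentile of all genes tested, -1.12 to 1.09, and the immediate-early row holds the lowest point, Egr1 at -6.51.

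Some genes that rose had been lower at 1 h than before TNFα. Lrrc32 (GARP), which anchors latent TGF-β at the cell surface, had 19.9 and 20.9 FPKM at 0 h, 12.8 and 12.6 at 1 h and 62.5 and 62.4 at 2 h, with replicates almost equal at each time (2.26 ± 0.08, adjusted p = 1.45e-07). Its 1 h level was below 0 h (1 h minus 0 h, -0.66, adjusted p = 0.000708). Midn, a ubiquitin-like nuclear protein, went from 64.9 and 62.3 FPKM to 30.99 and 26.2 and then 91.7 and 107 (1.78 ± 0.21, adjusted p = 0.000836). Fem1b, a substrate receptor of an E3 ligase, followed the same course from 15.7 and 14.8 FPKM to 8.57 and 8.77 and 22.9 and 22.7 (1.35 ± 0.11, adjusted p = 5.71e-05). Lrrc32, Midn and Fem1b, like Nfatc1, Cebpd, Mt2 and Neat1 below, were picked after their values were seen, as large changes called by both measures.

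For other genes that rose, the change from 0 h to 1 h did not pass the test. Nfatc1, a calcineurin-dependent transcription factor, had 7.98 and 8.44 FPKM at 0 h, 7.50 and 8.07 at 1 h and 32.99 and 30.9 at 2 h (1.97 ± 0.40, adjusted p = 0.0207; by fragments 2.08 ± 0.11, adjusted p = 5.21e-07). Cebpd (C/EBPδ), an acute-phase transcription factor, rose from 18.1 and 12.6 to 55.2 and 43.9 FPKM (1.68 ± 0.22, adjusted p = 0.00194) and Ripk2, the kinase downstream of NOD receptors, from 5.74 and 6.005 to 19.3 and 16.9 (1.54 ± 0.14, adjusted p = 0.00013). The libraries of the 2 times did not overlap for any of these 3. Mt2, a metallothionein, rose from 98.98 and 80.8 to 221 and 252 FPKM (1.40 ± 0.16, adjusted p = 0.000753), and the nuclear non-coding RNA Neat1 from 114 and 68.7 to 349 and 413 (2.09 ± 0.29, adjusted p = 0.00274). Fas, the death receptor, rose from 6.66 and 6.67 to 12.97 and 12.9 FPKM (0.91 ± 0.16, adjusted p = 0.0104), Bag3, a co-chaperone, from 24.4 and 23.8 to 37.9 and 36.9 (0.62 ± 0.07, adjusted p = 0.000554), and Tnfrsf1b (TNF receptor 2) from 3.37 and 3.27 to 5.92 and 5.29 (0.68 ± 0.16, adjusted p = 0.0433). Calls did not hold for Nfatc1 without any 1 of the 4 libraries (adjusted p up to 0.1), for Fas without 1 h replicate 1 or 2 h replicate 1 (adjusted p up to 0.0518), and for Tnfrsf1b without any 1 of the 4 libraries (adjusted p up to 0.185). Of the 17 survival and cell death regulators 2 rose (Fas and Bid) and 2 fell (Gadd45a and Pmaip1) by FPKM. By fragments 4 rose and 4 fell. The shares of all genes were 2.04% and 1.88% by FPKM and 10.7% and 14.1% by fragments. The call was lost for Bid without 1 h replicate 1 or 1 h replicate 2 (adjusted p up to 0.135), for Pmaip1 without 1 h replicate 1 or 2 h replicate 1 or 2 h replicate 2 (adjusted p up to 0.0647), and for Sharpin without 2 h replicate 2 (adjusted p up to 0.0511). Of 18 genes of RelA co-activators and TNF receptor signalling 2 rose, Tnfrsf1b and Sharpin, the latter by FPKM only (by fragments 0.04 ± 0.08, adjusted p = 0.798). By fragments 2 of this list rose and 6 fell, with a median of -0.155.

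Id2, Skil and Snai1 rose. Of 13 genes listed as early targets of BMP, TGF-β, Notch and Wnt, 3 rose and 1 fell, with a median of 0.61. By fragments 6 rose and 1 fell. The shares of all genes were 2.04% and 1.88% by FPKM and 10.7% and 14.1% by fragments. Id2, an inhibitor of basic helix-loop-helix factors, had 43.8 and 19.6 FPKM at 0 h, 20.6 and 19.1 at 1 h and 88.3 and 108 at 2 h (2.27 ± 0.31, adjusted p = 0.00234). Skil, a co-repressor of Smad proteins, rose from 7.36 and 6.98 to 16.01 and 17.01 FPKM (1.15 ± 0.14, adjusted p = 0.00115) and Snai1, a repressor of epithelial genes, from 7.22 and 6.23 to 13.02 and 15.6 (1.03 ± 0.19, adjusted p = 0.0136). Id1 and Id3, relatives of Id2, had already risen from 0 h to 1 h, and their changes from 1 h to 2 h did not pass. Id1 had 67.8 and 55.1 FPKM at 1 h and 96.9 and 116 at 2 h (0.79 ± 0.29, adjusted p = 0.183). Id3 had 84.8 and 77.8 FPKM at 1 h and 116 and 133 at 2 h (0.61 ± 0.26, adjusted p = 0.259). Bambi, a decoy receptor that blocks TGF-β signalling, fell from 7.53 and 8.24 to 4.40 and 4.96 FPKM (-0.70 ± 0.13, adjusted p = 0.0168). No call was made for Snai1 without 1 h replicate 2 or 2 h replicate 2 (adjusted p up to 0.0851), and for Bambi without 1 h replicate 1 or 1 h replicate 2 or 2 h replicate 1 (adjusted p up to 0.0979). Of 12 circadian clock genes Arntl (BMAL1) rose, from 14.8 and 15.7 to 26.7 and 23.5 FPKM (0.70 ± 0.09, adjusted p = 0.00161), and by fragments 6 rose.

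**Figure D3:**
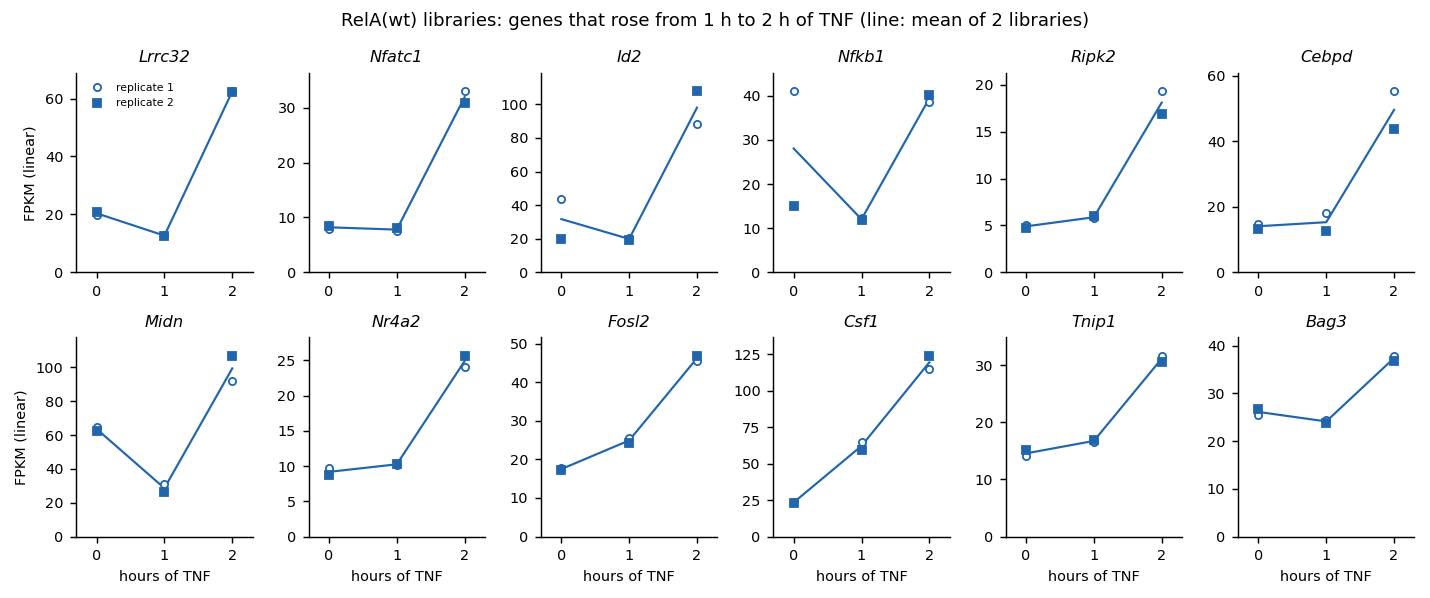
FPKM (linear axis from 0) of 12 genes that rose in RelA(wt) cells against hours of TNFα, with open circles for replicate 1, filled squares for replicate 2 and a line through the means. For each gene the mean at 2 h is above the other times. Lrrc32 and Midn are among those lower at 1 h than at 0 h, as are the means of Nfkb1 and Id2, whose 0 h libraries differ widely.

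Interferon-stimulated genes gave calls in both directions. Of 27 tested, 3 rose and 2 fell by FPKM, against 2.04% and 1.88% of all genes. By fragments 6 of 25 rose and 4 fell, against 10.7% and 14.1% of all genes. Gbp7 and Gbp5, guanylate-binding proteins of cell-autonomous defence, were listed at 0 at 0 h and 1 h. At 2 h Gbp7 had 4.19 and 3.65 FPKM (adjusted p = 0.000234) and Gbp5 3.02 and 1.83 (adjusted p = 0.00185). Usp18, a protease that removes ISG15, was at 0 likewise and at 2.51 and 1.14 FPKM at 2 h (adjusted p = 0.0451). Irf1, the factor that drives many of these genes, fell from 70.5 and 58.7 FPKM at 1 h to 15.1 and 16.4 at 2 h (-1.996 ± 0.19, adjusted p = 0.000208), which was still above its 4.17 and 5.04 FPKM at 0 h (2 h minus 0 h, 1.68, adjusted p = 0.000915). Ifit2 fell by a small amount, from 16.5 and 17.99 to 12.2 and 11.7 FPKM (-0.51 ± 0.09, adjusted p = 0.012). The test was no longer passed for Ifit2 without 1 h replicate 2 or 2 h replicate 2 (adjusted p up to 0.0761), and for Usp18 without any 1 of the 4 libraries (adjusted p up to 0.219).

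Several lists gave no call by FPKM and few by fragments. Of 22 cell cycle genes 3 fell by fragments, of 12 cholesterol synthesis genes 2 rose, and of 13 acute-phase and innate defence genes 3 rose. Among all genes tested by fragments 14.1% fell and 10.7% rose. Among 6 prostaglandin synthesis enzymes 1 rose and 1 fell, and the 4 replication-dependent histone genes gave no call by either measure. The co-activator Crebbp (CBP) had 6.72 and 6.90 FPKM at 1 h and 7.75 and 5.31 at 2 h (-0.08 ± 0.34, adjusted p = 0.985). Its relative Ep300 (p300) had 12.99 and 13.3 and then 12.2 and 11.2 (-0.16 ± 0.30, adjusted p = 0.898). By fragments Crebbp was lower (-0.28 ± 0.07, adjusted p = 0.0111). Of 10 heat shock genes 1, Bag3, rose by FPKM, against 2.04% of all genes, and by fragments 1 rose and 2 fell.

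Some of the largest FPKM changes involve genes listed at 0 or differ by measure. Genes that every cell uses were among those listed at 0 in both libraries of a time: Atp6v0c, a subunit of the proton pump, had 297 and 243 FPKM at 0 h, 0 at 1 h and 213 and 335 at 2 h, and Prpf39, a splicing factor, 22.1 and 15.2, then 0, then 15.3 and 17.9. Scamp3, Rai12, Ppat, Ppip5k1, Zfp688 and Klf5 were listed at 0 at 1 h in the same way, and Fam161b, Fgfr3, Ms4a6c, Ggcx, Kprp and Snord1c at 2 h. Atp6v0c and Scamp3 lay in assembled transcripts that joined them with a neighbour. So a gene listed at 0 is given here without a fold change. Cd74, the invariant chain, was at 0 at 0 h and 1 h and at 7.66 and 2.26 FPKM at 2 h. Bmp1, a procollagen protease, fell from 1634 and 2386 to 65.2 and 91.9 FPKM (-4.66 ± 0.56, adjusted p = 0.001) but by fragments changed by 0.10 ± 0.08, adjusted p = 0.403. Mbd4 had 4.98 and 7.51 FPKM at 1 h and 32.6 and 225 at 2 h (3.70 ± 0.84, adjusted p = 0.0367; by fragments -0.26 ± 0.54, adjusted p = 0.797), and Psmd5 had 143 and 147 at 1 h and 19.3 and 18.5 at 2 h (-2.90 ± 0.56, adjusted p = 0.0162; by fragments -0.24 ± 0.07, adjusted p = 0.0289). Xirp2, which binds actin in muscle, had 2.61 and 1.15 FPKM at 1 h and 55.3 and 171 at 2 h, where the libraries differed widely (5.43 ± 0.86, adjusted p = 0.0061; by fragments 3.98 ± 0.63, adjusted p = 0.000915). The adjusted p was above the threshold for Mbd4 without 1 h replicate 1 or 1 h replicate 2 or 2 h replicate 2 (adjusted p up to 0.179), and for Psmd5 without any 1 of the 4 libraries (adjusted p up to 0.0754).

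Genes picked for being high at 1 h in RelA(wt) cells would tend to be lower in a second measurement. Early genes were therefore also chosen by their change in the mutant lines, which uses no RelA(wt) level. They rose at least 2-fold from 0 h to 1 h in both mutant lines, each with an adjusted p under 0.05. The spread behind these p-values came from all 18 libraries, RelA(wt) included, so the choice and the calls below share it. There were 54 such early genes. In RelA(wt) cells 33 of them (61.1%) fell from 1 h to 2 h and none rose, against 1.88% and 2.04% of all genes tested, and 47 of 54 had a change below 0. Their median change was -1.51, and -1.32 over the 51 above 0 in all 4 libraries. Chosen and tested by fragments, 54 of 83 fell and 2 rose, against 14.1% and 10.7% of all genes. Of the 128 that rose in either mutant line, 49 fell and 6 rose by FPKM. By fragments 83 of 187 such genes fell and 26 rose, 44.4% and 13.9%. Among the 51 above 0 in all 4 libraries, Egr1 and Tnfaip3 had the lowest changes. Of the 54 genes, 7 had a change above 0 by FPKM, none of them called: Id1, Id3, Thbs1, Ccl2, Arid5a, Tac1 and Rnd1. By fragments 3 of the 7 turned sign, and Arid5a, at 0.14 by FPKM, fell (-1.53 ± 0.41, adjusted p = 0.0198). The others were Ccl2 (-0.18 ± 0.14, adjusted p = 0.422) and Rnd1 (-0.37 ± 0.22, adjusted p = 0.258).

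**Figure D4:**
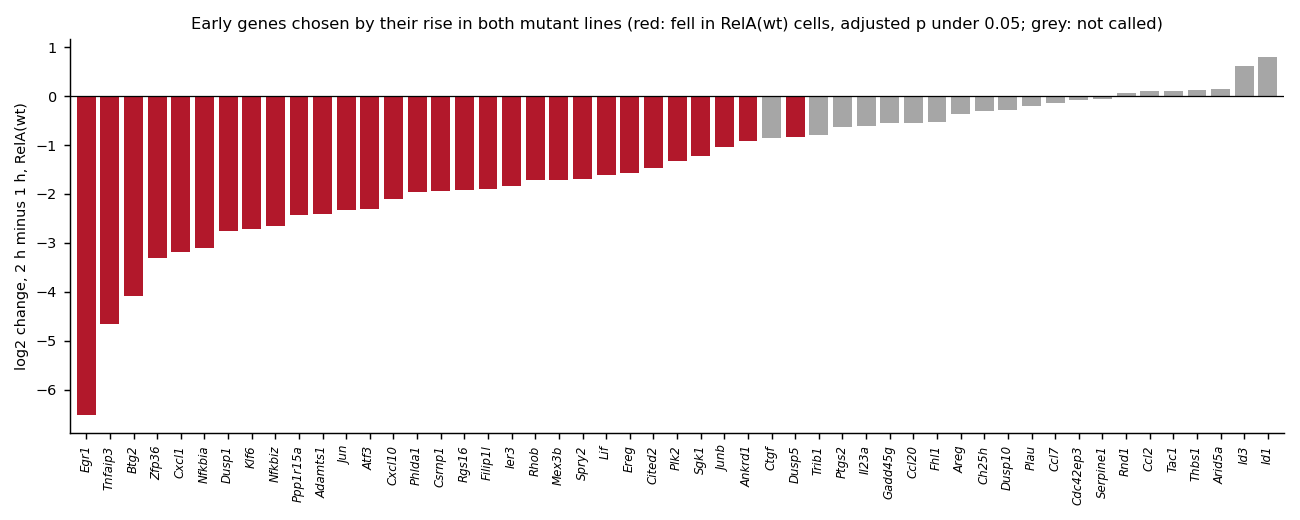
Log2 change from 1 h to 2 h in RelA(wt) cells (y axis) of the 51 early genes chosen in the mutant lines that were above 0 FPKM in all 4 libraries, with red bars for those that fell and grey bars for those not called. The bars run from Egr1 at -6.51 to Id1 at 0.79.

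The other 2 lines share no library with this comparison. Between 1 h and 2 h, 181 genes rose (1.48%) and 137 fell (1.12%) in RelA(TA2) cells, and 117 rose (0.955%) and 108 fell (0.881%) in RelA(Ser276Ala) cells. Of the 250 genes that rose in RelA(wt) cells, 219 (87.6%) had a change above 0 in RelA(TA2) cells and 214 (85.6%) in RelA(Ser276Ala) cells, against 50.4% and 43.2% of all genes tested. Of the 230 that fell, 201 had a change below 0 in each (87.4%), against 47.3% and 54.3%. The changes were smaller there: the genes that fell had a median of -0.95 in RelA(wt) cells, -0.46 in RelA(TA2) and -0.43 in RelA(Ser276Ala). Since the genes were chosen on the RelA(wt) values, a smaller median elsewhere is a description only.

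The test of the difference itself found genes whose change from 1 h to 2 h was not the same in the lines. Against RelA(TA2) 17 genes had a higher and 13 a lower change in RelA(wt) cells, and against RelA(Ser276Ala) 15 and 12. With the replicate number as a block in the fit, they were 10 and 2, and 6 and 3. The differences between lines were not tested with a library left out. The part of the RelA protein level, which the paper reports as lower in the serine mutant line, was not tested either. Without the block and at an unadjusted p under 0.05, the counts were 360 and 430, and 441 and 321, of 12254 genes tested. With no difference anywhere, a share of 0.05 of the genes tested would pass, both directions together. Lif fell in RelA(wt) cells from 35.95 and 38.1 to 10.6 and 13.03 FPKM, whereas RelA(TA2) cells had 30.1 and 25.8 at 1 h and 30.6 and 36.6 at 2 h. The difference in change was -1.87 ± 0.22, adjusted p = 0.00513. In RelA(Ser276Ala) cells Lif had 20.8 and 19.1 FPKM at 1 h and 18.1 and 13.8 at 2 h (-1.29 ± 0.22, adjusted p = 0.0533).

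The differences of single genes given here are from the fit without the replicate block, with which fewer genes passed. Irf1 differed from both lines. It had 36.9 and 27.5 FPKM at 1 h and 21.6 and 28.9 at 2 h in RelA(TA2) cells (-1.65 ± 0.26, adjusted p = 0.0339) and 10.5 and 10.7 at 1 h and 8.06 and 10.3 at 2 h in RelA(Ser276Ala) cells (-1.79 ± 0.26, adjusted p = 0.0231). Its 1 h level was highest in RelA(wt) cells, and its 2 h level there lay between the levels of the other lines. Tnfaip3 fell further in RelA(wt) cells than in RelA(TA2) cells, where it had 167 and 158 FPKM at 1 h and 26.2 and 31.2 at 2 h (-2.17 ± 0.35, adjusted p = 0.038). Against RelA(Ser276Ala), with 55.02 and 50.7 FPKM at 1 h and 7.12 and 6.40 at 2 h, the difference passed by fragments (-1.73 ± 0.14, adjusted p = 0.000113) and not by FPKM (adjusted p = 0.105). Klf6 fell further than in RelA(TA2) cells as well (109 and 129 to 35.6 and 31.4 FPKM there, -0.90 ± 0.14, adjusted p = 0.0321).

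For Nfkbia and Cxcl1 the difference passed by fragments only. Nfkbia had 193 and 190.5 FPKM at 1 h and 75.4 and 87.5 at 2 h in RelA(TA2) cells. In RelA(Ser276Ala) cells it had 187 and 162 at 1 h and 58.4 and 67.5 at 2 h. The difference in change by fragments was -2.29 ± 0.19, adjusted p = 8.81e-05 and -2.17 ± 0.19, adjusted p = 0.000196, and by FPKM it did not pass (adjusted p = 0.241 and 0.358). In both mutant lines both 2 h libraries were above those of RelA(wt) cells. Cxcl1 had 43.6 and 51.7 FPKM at 1 h and 16.9 and 24.8 at 2 h in RelA(TA2) cells, and its difference was -2.68 ± 0.31, adjusted p = 0.00206 by fragments (FPKM adjusted p = 0.0566). Csf2, at 14.04 and 13.1 FPKM at 1 h in RelA(wt) cells, stood at 1.24 and 0 in the RelA(TA2) libraries, at 0 in those of RelA(Ser276Ala), and at 0 in every library of the 3 lines at 2 h. Fos had 5.43 and 3.17 FPKM at 1 h and 1.06 and 1.05 at 2 h in RelA(TA2) cells, against 0 at 2 h in RelA(wt) cells.

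Among genes that rose, Ripk2 stood apart in RelA(Ser276Ala) cells, with 5.10 and 5.72 FPKM at 1 h and 5.29 and 5.73 at 2 h (1.52 ± 0.19, adjusted p = 0.0118). In RelA(TA2) cells it went from 8.14 and 7.25 to 16.5 and 13.99, which was not distinguished from RelA(wt) (0.60 ± 0.19, adjusted p = 0.482). Gbp7, listed at 0 in all 4 libraries of each mutant line at these times, had a higher change in RelA(wt) cells than in either (adjusted p = 0.0104 and 0.0165). Nfkb1 had 10.7 and 9.70 FPKM at 1 h and 19.7 and 19.6 at 2 h in RelA(Ser276Ala) cells, a smaller rise by fragments (difference 0.72 ± 0.11, adjusted p = 0.028) and not by FPKM (adjusted p = 0.883).

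**Figure D5:**
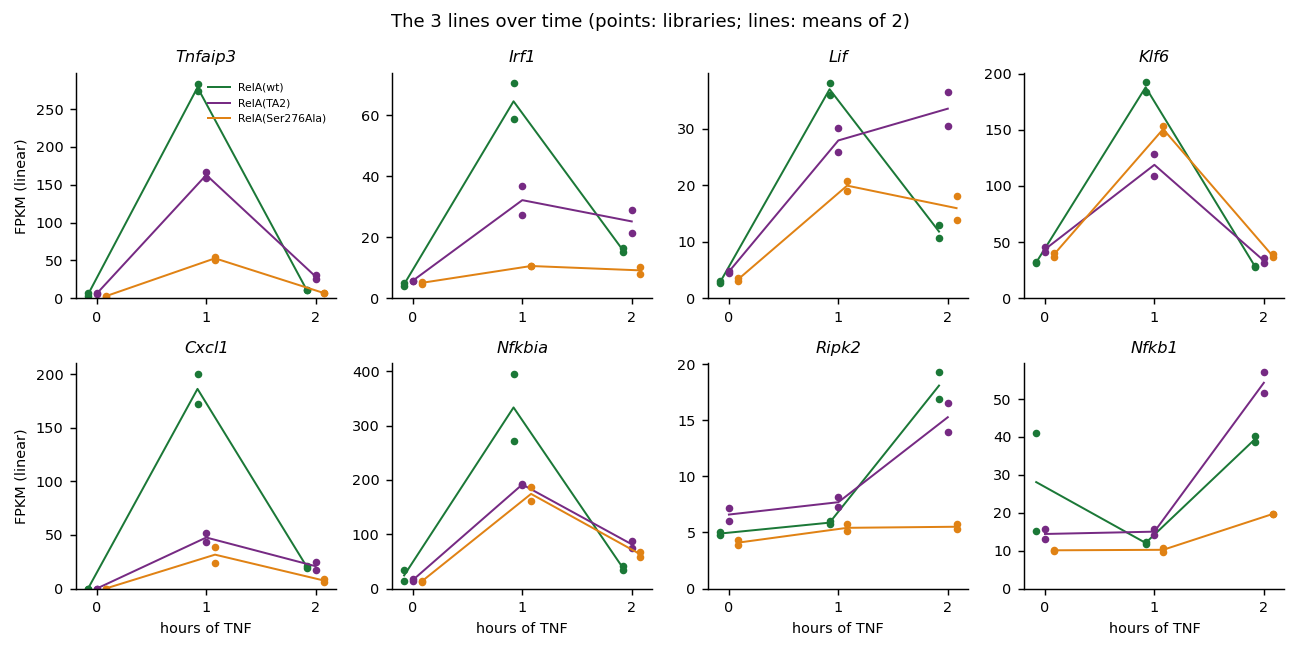
FPKM (linear axis from 0) of 8 genes against hours of TNFα in RelA(wt) (green), RelA(TA2) (purple) and RelA(Ser276Ala) (orange) cells, with a point per library and lines through the means. Tnfaip3, Irf1, Lif and Cxcl1 peak highest in RelA(wt) cells at 1 h, and Ripk2 stays flat in RelA(Ser276Ala) cells.

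The A+U-rich element was more frequent in genes that fell at least 2-fold, a feature that the comparison did not use. Of the 72 genes that fell at least 2-fold by both measures, 69 matched an annotated 3′ untranslated region and 41 of these (59.4%) held TATTTAT at least once. The share was 44.1% of the 59 matched genes that rose at least 2-fold by both and 31.4% of 11394 matched genes tested. The regions were not longer: the median was 0.996 kb for the genes that fell, 1.28 kb for those that rose and 1.21 kb for all. Per kilobase there were 1.03 copies of TATTTAT in the genes that fell, 0.315 in those that rose and 0.296 in all genes, at A+T contents of 57.02%, 55.99% and 56.36%. Over all genes that fell by both measures, whatever the size, the share with TATTTAT was 44.6%, close to the 42.2% of those that rose. Egr1, Ier2 and Nfkbiz, which fell steeply, hold no TATTTAT.

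Genes that fell at least 2-fold had a shorter median span than genes tested, and the whole set that fell did not. For those that fell at least 2-fold by both measures the median genomic span was 7.47 kb with 4 exon blocks, against 19.8 kb and 7 for genes that rose at least 2-fold and 22.4 kb and 9 for all genes tested. For all 199 genes that fell by both measures it was 24.96 kb, and for the 209 that rose 22.6 kb. Over all genes the 2946 with the longest span, above 51.96 kb, had a median change of -0.079 by FPKM and -0.125 by fragments, and the 2946 with the shortest, up to 9.62 kb, 0 and 0.007. By both measures 2.58% of the longest genes fell and 1.36% rose, and of the shortest 1.97% fell and 2.04% rose.

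Promoter motifs were counted in windows of 300 bases (250 before and 50 after the start), on both strands, with several windows for some genes. A κB consensus match was in 8 of 75 windows (10.7%) of genes that fell at least 2-fold by both measures, in 6 of 62 (9.68%) of those that rose, in 5.23% of windows of all genes tested and in 4.51% of all promoters of the table. Over all genes that fell by both measures it was in 10 of 204 windows (4.90%), below the share of genes tested, and over all that rose in 22 of 216 (10.2%). The serum response element core (2 C, 6 of A or T, 2 G) was in 5 of 75 windows (6.67%) of genes that fell and in none of 62 that rose, against 1.26% of genes tested and 1.63% of all promoters, and Zfp36 holds one 58 bases before its start. TATAAA was in 18.7% of windows of genes that fell, 3.23% of those that rose, 6.95% of genes tested and 13.6% of all promoters. Over all genes that fell it was in 14.7%, and over all that rose in 5.09%. The cAMP response element TGACGTCA was in 6.67%, 1.61%, 3.02% and 1.79% of the same 4 sets, and the AP-1 site TGANTCA in 9.33%, 9.68%, 5.15% and 7.81%. Over all genes that fell and all that rose, the serum response element core was in 2.94% and 0, TGACGTCA in 3.92% and 1.85%, and TGANTCA in 4.41% and 7.87%. Promoters were found for 59 of the 72 genes that fell and 47 of the 63 that rose, and a match is a description of the letters and not a bound site.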

How the data were processed

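RNA was sequenced from 3 lines, RelA(wt) and the mutants RelA(Ser276Ala) and RelA(TA2), at 0 h, 1 h and 2 h of TNFα, with 2 libraries each. Per the labels' processing notes the authors used CASAVA 1.8.2, TopHat2 2.0.5, Bowtie2 2.0.0.7, Cufflinks 2.0.2 and Cuffdiff on mm10. The values deposited by the authors are FPKM per assembled transcript, held in annotation text among other fields. They are scaled for depth and transcript length, so a transcript assembled differently in 1 library changes its FPKM.

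Transcripts were placed on the exons of RefSeq transcripts of the authors' merged assembly when 50% or more of their bases lay there or when 50% or more of the exonic length of the gene was covered (bedtools 2.31.1, Python 3.11.15, pandas 2.3.3), and FPKM were added up per gene; a gene with none was given 0. For the only transcript of a locus, fragments were recovered from FPKM and its upper confidence limit. Of those below 500, 88.9% to 90.2% lay within 0.02 of a whole number. For all other transcripts the fragments are FPKM multiplied by a factor that depends on transcript length, read from a curve through the lone transcripts. For these the second measure is rescaled FPKM and not a separate recovery. Depth is estimated from the lone transcripts. The test was run on genes reaching 1 FPKM in 2 or more libraries. It was limma (version 3.58.1, R version 4.3.3) applied to log2(FPKM + 0.5), 1 mean per condition over all 18 libraries, 9 residual degrees of freedom, variance trend, two-sided, Benjamini-Hochberg over all genes tested, with adjusted p under 0.05 as the call. Differences on this scale understate the change of low genes. The labels number the 2 libraries of a condition as replicates and do not name separate cultures (the methods call them independent), so p-values measure the spread between these libraries. Recovered fragments, as CPM of the fragments in genes, were tested in the same way on genes reaching 1 CPM in 2 or more libraries. The fits were tested on simulated data.

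The members and gene lists were chosen with earlier results of these data known. Genes named are those the paper names, the 12 largest calls per direction by each measure whose libraries do not overlap, from each list the 4 members of smallest adjusted p (2 if no member passed), up to 6 per direction from each test between lines and from the early genes, and further list members and genes marked as picked afterwards. The count of A+U-rich elements was added after the results were seen. Promoters are from RefSeq and 3′ untranslated regions from GENCODE. Of the genes named by this rule, 1 is not reported here.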

Additional observations from a re-analysis of the deposited data

Results flagged for a closer look

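The change from 1 h to 2 h differed between RelA(wt) cells and a mutant line, by the test of the difference itself in limma, for the genes below, which are among those named by the rule for genes in the text. Among genes of the TNFα response these were Lif (adjusted p = 0.00513 against RelA(TA2)), Irf1 (0.0339 against RelA(TA2) and 0.0231 against RelA(Ser276Ala)), Tnfaip3 (0.038 against RelA(TA2)), Klf6 (0.0321 against RelA(TA2)), Ripk2 (0.0118 against RelA(Ser276Ala)), Ccl20 (0.0165 against RelA(Ser276Ala)), and, with libraries listed at 0, Fos (0.0228 against RelA(TA2)), Csf2 (0.0169 against RelA(Ser276Ala)) and Gbp7 (0.0104 and 0.0165). Ccl20 had 1.95 and 3.18 FPKM at 1 h and 0 at 2 h in RelA(Ser276Ala) cells, and its difference did not pass by fragments. These values are from the fit without the replicate block. With it, 2 genes had a lower change in RelA(wt) cells against RelA(TA2), so not all of the genes listed here kept their call. Whether the level of RelA protein has a part in the differences between lines was not tested.

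Genes listed at 0 in both libraries of 1 condition gave Atp6v0c (adjusted p = 5.35e-06 against RelA(TA2) and 3.86e-05 against RelA(Ser276Ala)), Prpf39 (1.23e-05 and 7.95e-05), Zfp688 (0.000424 and 0.000309), Snord1c (0.00126 and 0.00161), and, against RelA(TA2), AY074887 (4.29e-08), Fkbp2 (4.18e-06), Mmp9 (0.00629) and Lin28b (0.00752). By fragments Mmp9 and Lin28b did not pass, and AY074887 and Snord1c were not tested. The differences of Ccdc55 (adjusted p = 3.44e-05 against RelA(TA2) and 7.95e-05 against RelA(Ser276Ala)), Lmbrd2 (0.0379 and 0.0165), Psma4 (0.00306 against RelA(TA2)) and, against RelA(Ser276Ala), Prpf6 (0.000581), Mnda (0.00598), Stra13 (0.00367) and Abca7 (0.0169) did not pass by fragments. Amdhd2, which an assembled transcript joined to its neighbour, had 139 and 132 FPKM at 1 h in RelA(wt) cells against 33.8 to 34.9 in the mutant lines (adjusted p = 1.11e-05 and 7.95e-05), and its difference passed by fragments too.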

How the results depend on the processing

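The counts of genes that rose (250) and fell (230) stayed within 1.5 times under both pseudocounts, all filters, both scalings of FPKM, the transcript choices, the fit on the 6 RelA(wt) libraries and no variance trend. By fragments 1258 rose and 1664 fell, and with fragments scaled by median of ratios, an alternative chosen after seeing the data, 1449 and 1381. The fit on the 4 compared libraries gave 102 and 130. Leaving out 1 library gave 139 to 221 that rose and 113 to 216 that fell. Kept to genes above 0 in all 4 libraries, also chosen after seeing the data, they were 222 and 202. Of 102 genes of the text 86 were called; 53 kept the call without each of the 4 libraries and 33 lost it in at least 1 case, and calls were lost for 42 in the fit on the 4 compared libraries, 27 in that on the 6 RelA(wt) libraries and 18 under the replicate block; a lone library was then assumed to vary like the other groups. Signs turned for Ccl2 (-0.18 by fragments, -0.14 with these scaled by median of ratios, -0.12 to 0.33 with 1 library left out, the lowest without 1 h replicate 1), Bmp1 (0.10 and 0.14 by the same measures), Mbd4 (-0.26 and -0.23), Atf6 (0.092 and 0.13, and 0.018 with transcripts of at least 300 bases), Arid5a (-1.53 and -1.50, and -0.44 by the highest transcript), Rnd1 (-0.37 and -0.34, -0.19 by the highest transcript, -0.15 to 0.26 with 1 library left out), Tac1 (-0.027 to 0.23 with 1 library left out), Vcam1 (-0.19 to 0.38 with 1 library left out, the lowest without 1 h replicate 2) and Crebbp (-0.33 to 0.18, the highest without 2 h replicate 2). The cause was not tested.

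Differences between lines gave, by fragments, 10 genes higher and 23 lower against RelA(TA2), and 22 and 12 against RelA(Ser276Ala). No pairing by replicate number was seen in RelA(wt) cells (correlations of deviations between times from -0.062 to 0.020). The mutant lines were not checked, and a shared culture or batch is not excluded by this. With the replicate block 167 genes rose and 129 fell, 10 were higher and 2 lower against RelA(TA2), and 6 and 3 against RelA(Ser276Ala). Of early genes risen in either mutant line rather than both 38.3% fell and 4.69% rose. Depth limits genes near 1 FPKM, and exact zeros can be failed estimates.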
